A study of Mus musculus with 21 samples.

Results

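CD4+ T cells taken from the spleen 12 h after a low dose of antigen were compared with cells from a control group, over all genes of the count table. The low dose was 0.8 µg of the [4Y] form of a myelin basic protein (MBP) peptide, given under the skin in saline without adjuvant. The labels place 3 libraries in the 0.8 µg 12 h group and 3 in the control group, so that 6 of the 21 libraries of the series belong to the comparison. All mice were Tg4 Tiger Nr4a3-Tocky animals. Their CD4+ T cells carry a transgenic T cell receptor (TCR) for the MBP peptide, an Il10-GFP reporter, and a Timer protein under the control of Nr4a3 that fluoresces blue when newly made and red once it has matured. The labels call the control mice untreated, while the study elsewhere names the saline carrier for them. Per the study's methods, the 12 h cells were sorted for both Timer colours (Blue+Red+), and a gate for the control cells was not given in the methods. Receipt of peptide and the sort for cells that had made Timer therefore cannot be told apart here. As Nr4a3 drives the Timer by which the 12 h cells were chosen, its own level is a check of the sort and no independent result. Mice of both sexes were used, replicates were separate mice, and ages were not stated for the separate groups.

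A TCR that binds its peptide signals through the kinases Lck and Zap70 to calcium and NFAT, to MAP kinases and AP-1, and to NF-κB. Immediate early genes respond first. Over the following hours a CD4+ T cell leaves quiescence: it lowers receptors that keep naive cells recirculating between blood and lymphoid organs, raises the machinery for making ribosomes, nucleotides and proteins, and prepares to copy its DNA before it divides.

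Library totals ranged from 3134516 to 4265658 counts in the 0.8 µg 12 h group and from 2352800 to 3278354 counts in the control group. On the authors' rlog values of the 500 most variable genes, the first principal component carried 95.1% of the variance and separated the groups, and the second carried 3.06%. The 12 h replicate 3 library stood apart on the second component, at -11.7 against 5.95 and 5.90 for its partners, and so did control replicate 1, at -7.71 against 3.96 and 3.62. These were also the libraries with few counts of Xist, which is expressed from the inactive X chromosome (9 and 38, against 2616 to 3572 in the other 4), and with many counts of the Y-linked gene Ddx3y (450 and 655, against 1 to 4), so that each group held 1 male and 2 female libraries by these genes. The ribosomal RNA-overlapping gene Gm42418 took 25.7% of the counts of 12 h replicate 3 against 17.0% and 18.2% in the other 12 h libraries and 24.0% to 24.7% in the controls. Without that library 4937 genes were called in place of 5094, and without control replicate 1 4789 were. Cd4 was at 835, 745 and 866 normalised counts at 12 h and at 1025, 973 and 1122 in the controls (log2 fold change -0.35 ± 0.13, not called), while the 10 CD4 T cell markers together went from 4303 to 4534 CPM (counts scaled to each library's total) in the controls to 1805 to 1839 CPM at 12 h. Markers of other cells were present at low levels, and their direction differed by cell type. The summed B cell markers ranged from 401 to 470 CPM in the controls and from 39.2 to 102 CPM at 12 h (4 of 10 markers called lower), NK cell markers from 17.5 to 25.3 CPM and from 1.28 to 1.88 CPM (Klrd1 called lower, 1 of 3 tested), and stromal and endothelial markers, almost all Pecam1, from 189 to 236 CPM and from 10.2 to 16.6 CPM (Pecam1 being the single marker tested, called lower). Of the 6 stromal and endothelial markers, 3 were at 0 in all 6 libraries, as were 6 of the 8 neutrophil markers. Monocyte and macrophage markers were at 12.3 to 28.3 CPM in the controls and 31.3 to 43.6 CPM at 12 h. The sums of 2 other types overlapped between the groups. Dendritic cell markers were at 67.7 to 155 CPM in the controls and 17.9 to 81.0 CPM at 12 h. Erythroid markers were at 37.4 to 216 CPM and 68.0 to 157 CPM. Cd8a, a CD8 T cell marker, was at 56.9, 45.9 and 58.7 normalised counts at 12 h against 2.06, 8.11 and 9.99, while its partner chain Cd8b1 was at 107, 94.0 and 122 against 102, 124 and 150 (log2 fold change -0.21, not called). The part of these cells in the results was not tested. In bulk samples such as these, fewer cells of a type and less RNA per cell cannot be told apart.

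Of 15300 genes with at least 10 reads over the series, 13518 could be tested. A gene was called when its DESeq2 adjusted p was under 0.05 and its shrunken log2 fold change was above 1 in size. By that rule 5094 genes, or 37.7% of those tested, differed between the 12 h cells and the control. Of these, 2322 (17.2%) were higher at 12 h and 2772 (20.5%) were lower. Counts of gene-list members called against the control are to be read beside these percentages. The median log2 fold change of all tested genes was -0.11. The called genes carried much of the sequenced RNA. Those called higher took 29.1% ± 1.7 of the counts of a 12 h library and 7.71% ± 0.13 of those of a control library (SD, n = 3), and those called lower took 5.95% ± 0.42 and 22.8% ± 0.28. These shares use the calls themselves and describe their weight only. By more than 3 on the log2 scale, 267 genes were higher and 486 lower, and by more than 5, 28 and 58.

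**Figure D1:**
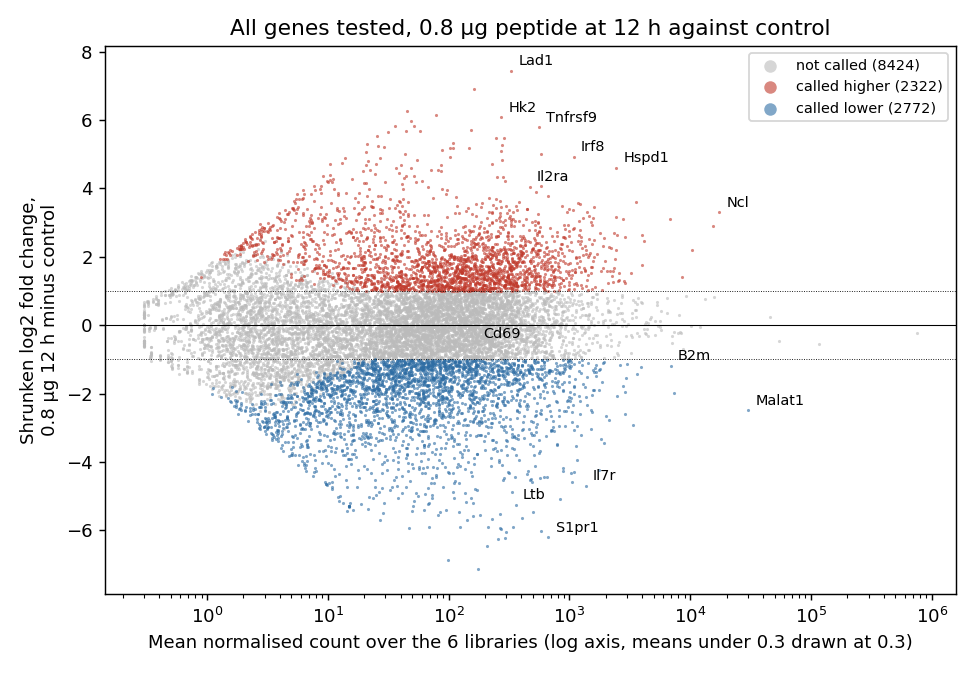
Shrunken log2 fold change (0.8 µg 12 h minus control, vertical axis) of every tested gene against its mean normalised count over the 6 libraries (horizontal log axis), with the 2322 genes called higher in red, the 2772 called lower in blue and the others in grey. Dotted lines mark a log2 fold change of 1 in either direction. Ncl and Malat1 lie at the abundant end on opposite sides, at 3.31 and -2.48, and Lad1 has the highest shrunken value, 7.44.

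The sort was checked first. Nr4a3, which encodes an orphan nuclear receptor induced by TCR signalling (chr4:48045153-48086447, GRCm38), was at 444, 472 and 769 normalised counts in the 12 h libraries and at 37.1, 28.4 and 12.9 in the controls. All 12 h libraries were above all controls, with a log2 fold change of 4.21 ± 0.39 (SE, adjusted p = 1.85e-25). Its relative Nr4a1 (chr15:101254269-101274795), which does not drive the Timer, was at 449, 535 and 503 against 18.6, 26.4 and 64.2 (3.63 ± 0.39, adjusted p = 2.66e-19). The groups of Nr4a1 did not overlap either, and Nr4a2 rose less, by 2.59 ± 0.44.

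Of the 22 tested genes in a list of immediate early and TCR-induced factors, 8 were higher and 1, Jun, was lower, with a median of 0.23 beside -0.11 for all genes. Fosl1, an AP-1 subunit, was at 23.5, 3.01 and 10.6 normalised counts at 12 h and was not counted in any control, a difference of at least 3.56-fold. Myc, the growth-promoting transcription factor, was at 139, 266 and 156 against 41.2, 51.7 and 68.5 (1.80 ± 0.23, adjusted p = 1.27e-13). Many early genes were not called. Cd69, an early surface marker that holds T cells in lymphoid tissue, was at 105, 187 and 126 against 209, 220 and 174. Its groups overlapped, and the log2 fold change was -0.52 ± 0.16. Egr1 and Egr2, zinc finger factors of the first wave, had log2 fold changes of -0.22 and 0.16, and Fos had -0.52.

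The gene with the highest shrunken log2 fold change was Lad1, which encodes ladinin, an anchoring filament protein known from basement membranes (chr1:135818598-135833342). It was at 688, 535 and 749 normalised counts at 12 h and at 2.06, 1.01 and 4.28 in the controls, at least 189-fold higher when the control libraries are set to the floor of 3 counts. As its controls are at the floor, that rank depends on the shrinkage, and Ifng, Tnip3, Pdzk1ip1 and Sema4c had higher unshrunken values (9.54, 8.94, 8.76 and 8.41, against 8.18 for Lad1). Other genes near absence in the control cells followed it. Bcat1, a cytosolic branched-chain aminotransferase, was at 310, 283 and 370 against 2.06, 0 and 1.43 (at least 92.4-fold higher). Pdzk1ip1, a small membrane protein gene, was at 121, 108 and 44.6 against 0 in each control library (at least 26.2-fold higher), and Sema4c, a semaphorin, was at 77.4, 97.0 and 39.9 against 0 (at least 20.6-fold higher). Sema4c shares sequence on the opposite strand with D430040D24Rik, and as the strand setting of the count was not stated, its reads cannot be assigned with certainty.

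**Figure D2:**
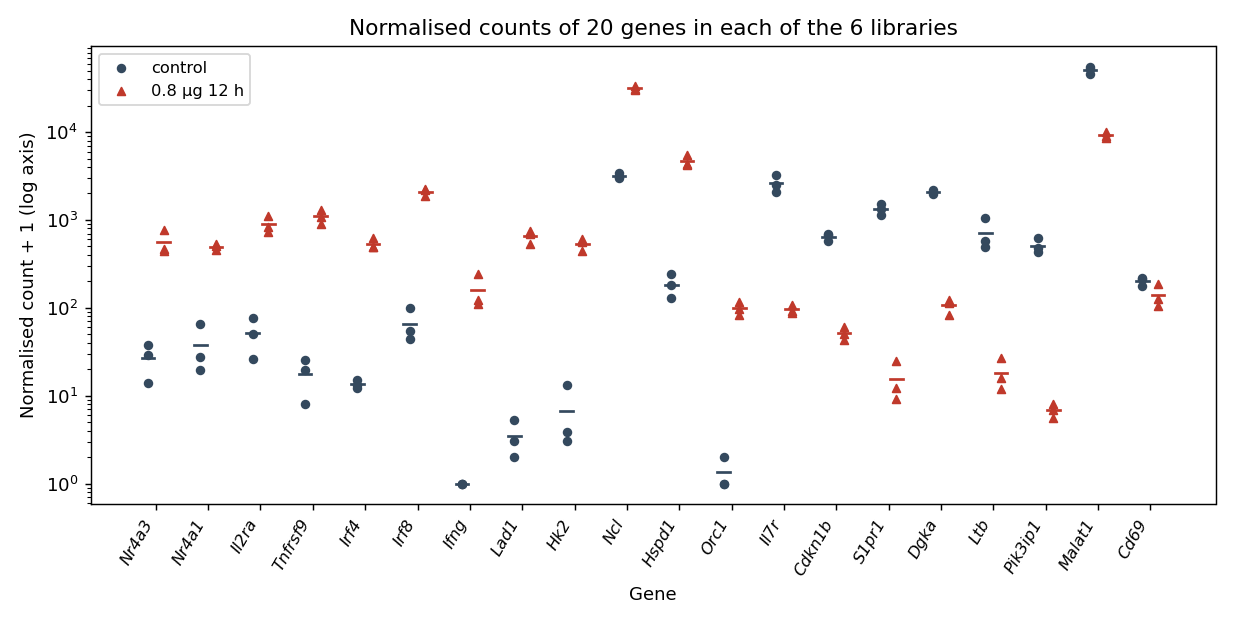
Normalised count plus 1 (vertical log axis) of 20 genes in each of the 3 control (circles) and 3 0.8 µg 12 h libraries (triangles), with a bar at each mean. Cd69, at the right, is the gene among them whose groups overlap.

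Cytokine genes were among those that rose furthest. Of 22 tested genes for cytokines and ligands of the TNF family, 9 were higher (40.9%) and 2 lower (9.09%), beside 17.2% and 20.5% of all genes. Their median of 1.11 depended on the fit, at 1.79 with edgeR and 0.31 with limma on the rlog values. Ifng, the Th1 cytokine interferon-γ (chr10:118441046-118445892), was at 110, 120 and 241 normalised counts at 12 h and was not counted in any control library. It was at least 45.2-fold higher, with a log2 fold change of 6.14 ± 0.83 (adjusted p = 3.25e-10), and it overlaps Gm49751 on the same strand. Lif, a cytokine of the IL-6 family, was at 91.2, 198 and 55.2 against 0, 0 and 1.43 (at least 33.0-fold higher). Mif, macrophage migration inhibitory factor, was at 1616, 1618 and 1528 against 133, 149 and 137 (3.48 ± 0.14). The 12 h replicates of Mif lay close together, while those of Lif were spread widely. Ltb, which encodes lymphotoxin-β, went the other way, from 579, 487 and 1045 in the controls to 10.8, 15.0 and 25.8 at 12 h (-5.25 ± 0.29). The other member called lower was Tnfsf10, the death ligand TRAIL (-2.25). Il2 rose modestly, from 4.12, 5.07 and 8.57 to 10.8, 22.6 and 21.1 (1.48 ± 0.48), and Il10, the gene of the GFP reporter, was at 3.92, 1.50 and 0 against 3.09, 0 and 9.99, with overlapping groups. Il4, Il5 and Il13 had too few reads to be tested.

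Of 28 cytokine receptors tested, 6 were higher (21.4%) and 14 lower (50%, median -0.96), beside 17.2% and 20.5% of all genes. Il2ra, the α chain of the IL-2 receptor (CD25, chr2:11642807-11693193), was at 826, 1099 and 736 against 76.3, 25.4 and 50.0 (4.05 ± 0.25, adjusted p = 4.35e-55). Il12rb1, a chain of the IL-12 receptor, was at 70.6, 88.8 and 77.5 against 2.06, 1.01 and 2.86 (at least 22.7-fold higher). Il12rb2, the partner chain through which Th1 cells sense IL-12, was at 53.9, 96.3 and 24.7 against 0, 0 and 1.43 (at least 16.8-fold higher), though it lies opposite the abundant gene Serbp1, which also rose. In contrast, Il7r, the survival receptor of resting T cells (chr15:9505788-9530176), was at 86.3, 108 and 91.6 at 12 h and at 2505, 3272 and 2104 in the controls (-4.70 ± 0.27, adjusted p = 2.37e-64). Il2ra and Il7r thus moved in opposite directions without overlap between the groups. Of the other chains, Il2rb was at 795, 837 and 800 against 85.6, 45.6 and 95.6 (3.41 ± 0.18), and Il2rg, shared by the receptors of IL-2 and IL-7, was at 603 ± 41.4 against 1110 ± 99.7 and was not called (-0.88 ± 0.11).

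Costimulatory and coinhibitory receptors went both ways, each above the 17.2% of all genes called higher and the 20.5% called lower. Among 17 costimulatory genes, Tnfrsf9, Tnfrsf4, Tnfrsf18, Cd226 and Cd81 were higher and Slamf6, Cd84, Tnfrsf25, Cd28 and Cd27 were lower (29.4% each). Their median of 0.29 turned to -0.04 when only the 6 libraries were fitted and to -0.08 without 12 h replicate 1. Tnfrsf9, a TNF receptor that sustains activated T cells, was at 1312, 1089 and 896 against 18.6, 7.10 and 24.3 (5.79 ± 0.40, adjusted p = 1.01e-44). Tnfrsf4, which encodes the costimulatory receptor OX40, was at 525, 553 and 286 against 48.4, 28.4 and 44.3 (3.44 ± 0.26). Icos, a CD28-family receptor, was at 561, 542 and 337 against 301, 267 and 220. The groups of Icos did not overlap, but its log2 fold change of 0.86 ± 0.19 (adjusted p = 1.49e-05) did not reach 1. Among 18 coinhibitory genes, 6 were higher and 6 lower (33.3% each, median -0.44). That median was unsteady, as in single 12 h libraries, set against the control mean, it ran from -0.67 to 0.15. Cd160 was at 178, 139 and 202 against 3.09, 3.04 and 5.71 (5.13 ± 0.47). Pdcd1lg2, the ligand PD-L2, rose by 4.22 ± 0.47, and Cd200 by 3.33 ± 0.30. Cd101 was at 26.8, 10.1 and 21.4 in the controls and was not counted at 12 h (at least 6.69-fold lower). Pdcd1, which encodes PD-1, rose from 6.18, 3.04 and 7.14 to 48.0, 33.8 and 29.4 (2.57 ± 0.42). Ctla4 was at 34.3, 70.7 and 16.4 against 18.6, 7.10 and 31.4, with overlapping groups and an adjusted p of 0.0561, and Tigit was not counted in any of the 6 libraries.

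Of 36 tested transcription factors of helper and effector fates, 14 were higher (38.9%) and 6 lower (16.7%). Beside them stood 17.2% and 20.5% of all genes, and the list's median was 0.08. Eomes, a T-box factor of cytotoxic and memory cells, was at 325, 323 and 265 against 2.06, 9.13 and 1.43 (5.71 ± 0.46, adjusted p = 1.65e-29). Irf4, which TCR signalling induces in a graded way, was at 494, 626 and 492 against 11.3, 12.2 and 14.3 (5.27 ± 0.27, adjusted p = 5.26e-75). Irf8, its close relative, was at 1866, 2197 and 2236 against 99.0, 53.7 and 42.8 (4.93 ± 0.17, adjusted p = 1.79e-173). Bhlhe40, a regulator of cytokine output, was at 181, 281 and 137 against 6.18, 3.04 and 2.86 (5.19 ± 0.44). The Th1 factor Tbx21 rose by 2.76 ± 0.37. Gata3, Rora and Stat4 were not called, with log2 fold changes of -0.11, -0.19 and 0.09. Foxp3, the factor of regulatory T cells, was at 10.8, 20.3 and 3.52 against 56.7, 14.2 and 45.7 (-1.57 ± 0.50, adjusted p = 0.00417), with groups that overlap and a call that was lost without control replicate 1 (-1.20). Of the 35 genes in the study's modules, which were chosen there on these samples and are no independent evidence of direction, 17 were higher and 5 lower (median 1.04). Of the study's TCR.strong genes, which were chosen there in part from the 4 h groups of the series and not from this comparison, Tnfrsf4, Irf8 and Tnip3 were higher and Icos and Stat4 were not called. Of its T activation genes, Nr4a1, Il2ra and Tnfrsf9 were higher and Cd69 was not called.

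Genes that damp signalling or steer survival were called in both directions. Of 26 feedback regulators of MAP kinase, G protein and cytokine signalling, 9 were higher (34.6%) and 6 lower (23.1%, median 0.45), beside 17.2% and 20.5% of all tested genes. Dusp4, a MAP kinase phosphatase, was at 50.0, 58.7 and 22.3 against 0, 2.03 and 0 (at least 12.6-fold higher). Cish, a suppressor of cytokine signalling, was at 579, 601 and 494 against 34.0, 77.1 and 55.7 (3.29 ± 0.20). Of 26 NF-κB pathway genes, 7 were higher (26.9%) and 6 lower (23.1%, median 0.05). Tnip3, an inhibitor of NF-κB signalling, was at 102, 175 and 30.5 against 0 in every control library (at least 29.5-fold higher), while Ikbkb, a kinase of the pathway, fell by 1.69 ± 0.15. In the BCL2 family and related death genes, 6 of 21 were higher (28.6%) and 3 lower (14.3%; Bbc3, Bcl2 and Cflar). Their median of -0.48 turned to 0.11 when only the 6 libraries were fitted. Bcl2 itself fell from 1273, 1621 and 1258 to 237, 251 and 249 (-2.47 ± 0.19), and its relative Bcl2l1, which encodes the survival protein BCL-XL, rose from 34.0, 37.5 and 30.0 to 185, 186 and 235 (2.52 ± 0.22). The pro-death gene Bbc3 (PUMA) fell by 4.14 ± 0.68.

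The broadest increases were in the machinery of growth. Of 63 genes for ribosome biogenesis, 59 were higher (93.7%, beside 17.2% of all genes) and 0 were lower, with a median of 2.37. The same list took 2.93% ± 0.117 of the counts of a 12 h library and 0.452% ± 0.0162 of those of a control library (SD, n = 3). Ncl, nucleolin, a main protein of the nucleolus where ribosomes are built (chr1:86344719-86359400), was at 31074, 30127 and 33732 normalised counts against 3103, 3396 and 2999 (3.31 ± 0.09), and small RNA genes lie within it on the same strand. Npm1, nucleophosmin, was at 12446, 12349 and 11706 against 1413, 1455 and 1356 (3.10 ± 0.09). Rpf2, which helps assemble the large subunit, was at 983, 988 and 1017 against 102, 111 and 97.1 (3.25 ± 0.14). Replicates of these genes differed little beside the gap between the groups. Of the 80 cytosolic ribosomal protein genes, 5 were higher (Rps27l, Rpl15, Rps2, Rpl41 and Rpl7a) and Rps27 was lower, with a median of 0.12, and their share of counts was 7.40% ± 0.794 against 6.91% ± 0.376. Rpl41 lost its call without control replicate 1 (0.99). Rpl7a lost its call with limma (0.97) and in several fits that left out 1 library (0.83 to 0.94).

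The E-box CACGTG is the sequence to which MYC and its partner MAX bind, and it was looked for on both strands in the RefSeq promoters (250 bases before to 50 after each start, GRCm38.p6). It stood in 14 of the 56 ribosome biogenesis promoters that could be matched (25%), in 10.6% of 9188 promoters of tested genes and in 7.24% of all 27025 promoters. In the chaperone list, described next, it stood in 3 of 26 (11.5%). A match is a description of the letters and no evidence of binding. The stretches below, with the E-box in capitals, are from Nop2 and Rrn3. Among called members of the ribosome biogenesis list, only these held the motif with its flanks wholly within the 250 bases upstream. Other called members held it elsewhere in the promoter. Nop2 (chr6:125131803-125131848, plus strand), an rRNA methyltransferase gene, rose by 2.89 ± 0.17. Rrn3 (chr16:13780631-13780676, plus strand), an RNA polymerase I initiation factor gene, rose by 1.73 ± 0.17. The motif begins 60 bases before the start in Nop2 and 48 bases before it in Rrn3.
Nop2: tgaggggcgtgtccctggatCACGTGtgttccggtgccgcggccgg
Rrn3: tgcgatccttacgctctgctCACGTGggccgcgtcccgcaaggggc

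Translation and protein folding genes rose too. Among 43 initiation and elongation factors, 31 were higher and 0 lower (median 1.61). Eif5a, a hypusine-bearing elongation factor, was at 2793, 2879 and 2702 against 327, 307 and 317 (3.13 ± 0.10), and Eif4e, which binds the mRNA cap, was at 688, 674 and 667 against 113, 117 and 128 (2.49 ± 0.14). Among 22 cytosolic tRNA synthetase genes, 21 were higher (median 1.99), with the arginine enzyme Rars up by 2.55 ± 0.14 and the glycine enzyme Gars by 2.51 ± 0.13. Qars, the member that was not called, had a log2 fold change of 0.34. Of 32 cytosolic and mitochondrial chaperones, 27 were higher and 0 lower (median 2.38). Hspd1, the mitochondrial chaperonin HSP60, was at 4315, 4205 and 5514 against 179, 241 and 127 (4.61 ± 0.22, adjusted p = 5.28e-95). It faces its partner Hspe1, which rose by 3.45 ± 0.14, on the opposite strand. Hsp90ab1, a cytosolic HSP90, was at 25880, 25326 and 31359 against 3650, 3665 and 3642 (2.90 ± 0.11). For Hsph1, a co-chaperone, the 12 h replicate 3 library at 3607 lay far above its partners at 1527 and 1488, and the controls were at 155, 170 and 171.

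Of 46 proteasome genes, 34 were higher and 0 lower (median 1.77). The strongest was Psme3, a nuclear proteasome activator, at 723, 703 and 769 against 93.8, 89.2 and 104 (2.92 ± 0.16). The immunoproteasome subunits Psmb9, Psmb10 and Psmb8 were not called, at -0.94, -0.26 and 0.22. Of 40 genes for the spliceosome and hnRNP proteins, 32 were higher and 0 lower (median 1.57), led by Snrpd1, a core Sm protein, at 1835, 1786 and 1546 against 189, 152 and 174 (3.31 ± 0.13). In the endoplasmic reticulum, 14 of 27 folding genes were higher (median 1.06). Hspa5, the chaperone BiP, was at 4816, 4854 and 5089 against 830, 871 and 718 (2.60 ± 0.13). The member called lower was Dnajb9, a target of the unfolded protein response, at 6.86, 8.27 and 5.87 against 27.8, 31.4 and 47.1 (-2.17 ± 0.43).

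Metabolic genes rose unevenly. Of 30 genes for purine and pyrimidine synthesis, 24 were higher and 2, Ctps2 and Rrm2b, were lower (median 2.04). Cad, which starts pyrimidine synthesis, was at 677, 696 and 640 against 81.4, 38.5 and 55.7 (3.48 ± 0.18), and Ppat, which commits to purine synthesis, was at 746, 692 and 933 against 95.9, 115 and 52.8 (3.11 ± 0.16). Of 30 amino acid transport, ATF4 and folate-cycle genes, 19 were higher and 3 lower (median 1.41). Shmt1, a serine hydroxymethyltransferase, was at 451, 468 and 528 against 6.18, 11.2 and 11.4 (5.49 ± 0.28). Psat1, of serine synthesis, rose by 3.69 ± 0.20. The members called lower were Ddit4, Trib3 and Ddit3, genes of the stress response, of which Trib3, at or under the floor in each 12 h library and at least 2.91-fold lower, lost its call without 12 h replicate 2 (-1.82), 12 h replicate 3 (-1.73), control replicate 1 (-1.92) or control replicate 3 (-1.89), with only the 6 libraries (-2.10), in thinned libraries (-1.76) and with limma (-0.90).

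In glycolysis and glucose transport, 11 of 22 genes were higher and Pdk1 and Aldoc were lower (median 1.04). Aldoc, at or under the floor of 3 counts in each 12 h library and at least 1.79-fold lower, lost its call without 12 h replicate 1 (-1.84), 12 h replicate 2 (-1.78), control replicate 1 (-1.67) or control replicate 3 (-2.11), under a replicate block (-2.15), with only the 6 libraries (-2.39), in thinned libraries (-1.99) and with limma (-0.69). Hk2, the inducible hexokinase (chr6:82725025-82774454), was at 562, 612 and 439 against 12.4, 2.03 and 2.86 (6.09 ± 0.41, adjusted p = 2.61e-43), while Hk1, the constant form, was not called at -0.91. Tpi1, triosephosphate isomerase, rose by 3.42 ± 0.22. Mitochondria gained transcripts for their own ribosomes (59 of 76 higher and 0 lower, median 1.42), for protein import (19 of 24 and 0, median 1.70) and for the nuclear-encoded respiratory chain (45 of 71 and 0, median 1.20). Mrpl12, of the mitochondrial ribosome, was at 582, 585 and 600 against 62.9, 80.1 and 58.5 (3.09 ± 0.17), and Timm10, an import chaperone of the intermembrane space, rose by 2.43 ± 0.21. Ndufa12, a complex I subunit, was at 849, 818 and 1099 against 140, 149 and 153 (2.63 ± 0.15). Of the 8 tested genes on the mitochondrial genome, mt-Nd6 was higher and 0 were lower, with a median of 0.51. In the TCA cycle, 11 of 24 were higher (median 0.87), with Idh3a at 2.58 ± 0.16, and Idh1 was lower. In the pentose phosphate pathway, 3 of 8 were higher (Tkt, Rpia and Pgd, median 0.60), of which Pgd, at 1.01 ± 0.16, stood at the threshold. Of 37 sterol and fatty acid synthesis genes, 4 were higher and 4 lower (10.8% each, median -0.15), under the 17.2% and 20.5% of all genes. Fasn, fatty acid synthase, rose by 2.06 ± 0.15 and Acaca, acetyl-CoA carboxylase, by 1.88 ± 0.22.

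**Figure D3:**
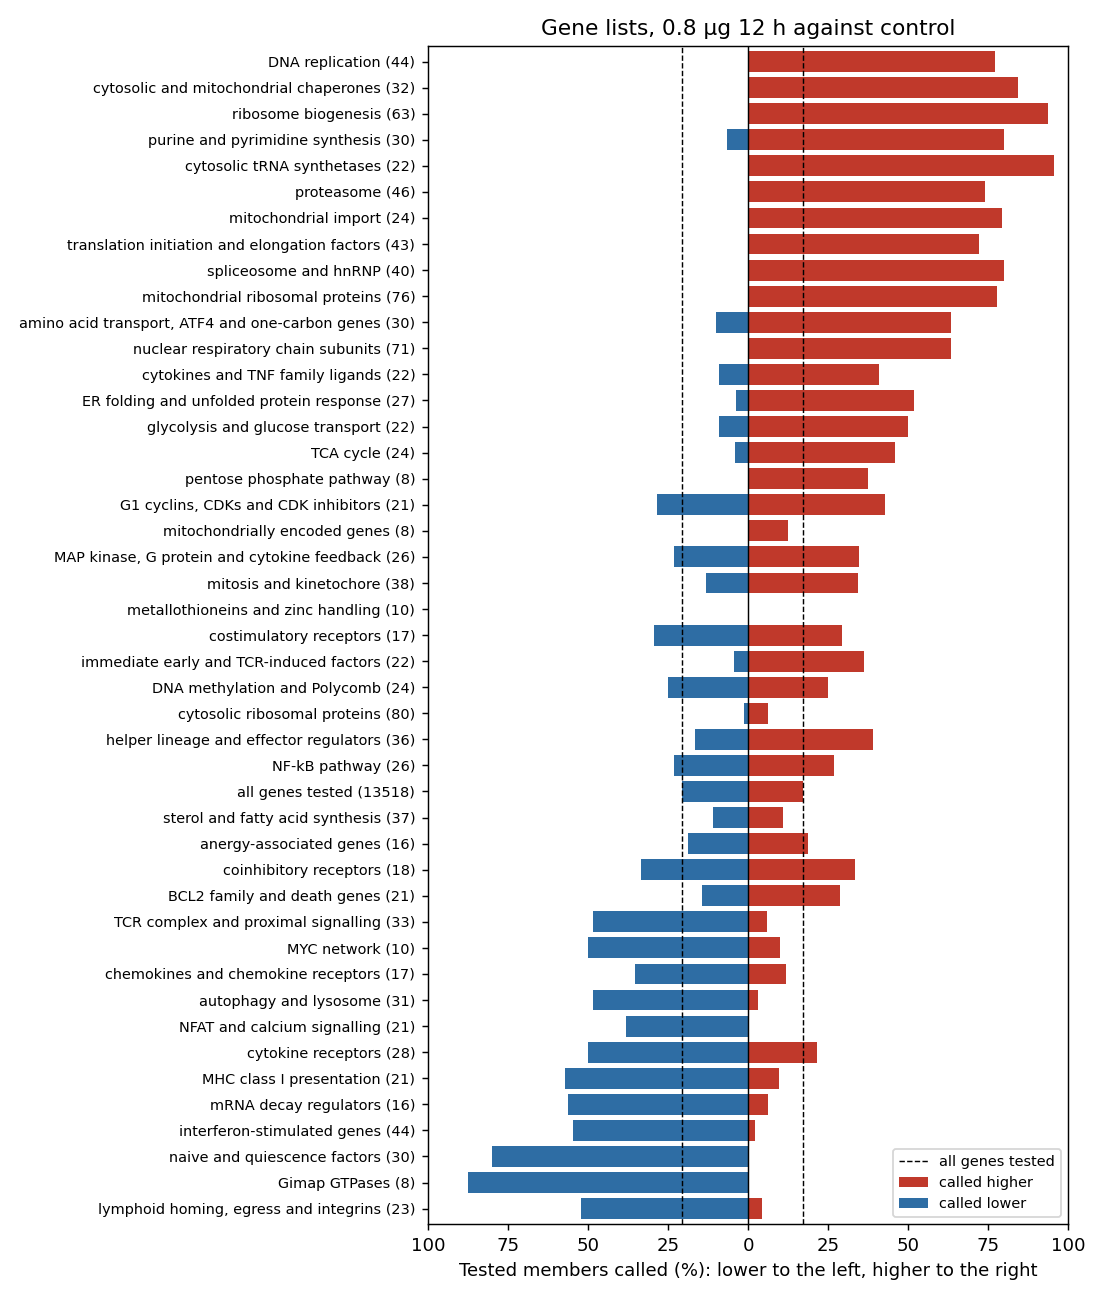
Percentage of the tested members of each gene list called higher (red, to the right) or lower (blue, to the left) at 12 h, ordered by the list's median log2 fold change, with the number tested in brackets. The study's own lists are not drawn. Dashed lines mark the shares over all 13518 tested genes, 17.2% higher and 20.5% lower. Lists for DNA replication, protein folding and ribosome biogenesis stand at the top and those for homing, Gimap GTPases and quiescence at the bottom.

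Cell cycle genes were separated by phase. Of 44 DNA replication genes, 34 were higher and 0 lower (median 2.41). Orc1, the large subunit of the origin recognition complex, was at 116, 82.7 and 95.1 against 0, 1.01 and 0 (at least 28.2-fold higher). Mcm10, which helps fire origins, was at 61.8, 48.9 and 153 against 0, 0 and 1.43 (at least 25.3-fold higher), with replicate 3 above its partners. Uhrf1, which maintains DNA methylation behind the fork, rose by 3.72 ± 0.32, and Pole, the leading-strand polymerase, by 4.18 ± 0.43. Among 24 DNA methylation and Polycomb genes, 6 were higher and 6 lower (25% each, median 0.23), near the 17.2% and 20.5% of all genes, with Hells, a chromatin remodeller of dividing cells, at 1153, 909 and 1219 against 84.5, 58.8 and 44.3 (4.06 ± 0.20) and Tet1, which oxidises methylcytosine, down to 43.1, 29.3 and 18.8 from 163, 178 and 153 (-2.36 ± 0.35). The 38 tested genes of mitosis and the kinetochore had a median of 0.43. Of them 13 were higher (34.2%) and 5 lower (13.2%), beside 17.2% and 20.5% of all genes. The lower members were Cenpa, Ccna2, Knl1, Kif23 and Prc1. The call of Ccna2 was lost without 12 h replicate 2 (-1.18), without 12 h replicate 3 (-1.15) and without control replicate 1 (-0.94), and that of Prc1 without 12 h replicate 1 (-0.60), 12 h replicate 3 (-1.05) and control replicate 3 (-0.46). Both were also lost with only the 6 libraries (adjusted p = 0.24 and 0.221 in DESeq2) and with limma (-0.80 and -0.84), that of Prc1 with edgeR (-1.05), the CPM filter (-1.05) and thinned libraries (-1.03) too, and that of Knl1 with only the 6 libraries (-1.33) and in thinned libraries (-0.96). Cdk1, the mitotic kinase, was at 36.3, 31.6 and 30.5 against 4.12, 0 and 11.4 (2.63 ± 0.43). Cenpa, the centromeric histone, was at 11.8, 6.77 and 7.04 against 77.3, 105 and 78.5 (-3.26 ± 0.33). Mki67, the proliferation marker Ki-67, was not called at -0.92.

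The E2F motif TTTNGCGC, known from promoters of S phase genes, stood in 9 of 36 matched promoters of the DNA replication list (25%), in 2.64% of promoters of tested genes and in 1.38% of all promoters, searched on both strands. It is shown in capitals in the called members with the largest log2 fold changes that hold it upstream. These were Mcm5 (chr8:75109336-75109383, plus strand), which rose by 3.60 ± 0.19, Mcm6 (chr1:128359725-128359772, minus strand), which rose by 2.71 ± 0.17, both subunits of the replicative helicase, and Pola1 (chrX:93632266-93632313, minus strand), the catalytic subunit of DNA polymerase α, which rose by 2.13 ± 0.18. In Pola1 the match is on the other strand, so its letters read in reverse complement.
Mcm5: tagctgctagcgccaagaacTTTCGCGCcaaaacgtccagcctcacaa
Mcm6: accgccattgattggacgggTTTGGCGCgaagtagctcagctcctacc
Pola1: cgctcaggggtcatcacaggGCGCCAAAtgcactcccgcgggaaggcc

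At the entry to the cycle, 9 of 21 tested cyclin, CDK and inhibitor genes were higher and 6 were lower (median 0.52). Ccnd2, cyclin D2, was at 11684, 10522 and 15246 against 4640, 4738 and 4645 (1.41 ± 0.11), and E2f1 was at 47.1, 49.6 and 124 against 4.12, 6.08 and 4.28 (3.60 ± 0.45). Cdkn1b, the inhibitor p27 that holds cells in G0, was at 50.0, 60.2 and 42.3 against 666, 692 and 581 (-3.62 ± 0.21). Rbl2, a pocket protein of resting cells, fell by 2.87 ± 0.23. In the MYC network, where Myc was the member that rose, the antagonist Mxd4 was at 2.94, 9.78 and 7.04 against 623, 561 and 550 (-6.22 ± 0.35). Its relatives Mxi1 and Mxd1 fell by 1.78 ± 0.39 and 1.64 ± 0.37, and Mnt and Mlxip were the remaining members called lower.

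Genes of naive and resting cells were lower. Of 30 naive and quiescence factors, 24 were lower and 0 higher (median -1.81). Pik3ip1, an inhibitor of PI3 kinase, was at 5.88, 4.51 and 7.04 at 12 h and at 480, 619 and 431 in the controls (-6.26 ± 0.38, adjusted p = 1.14e-53). Tsc22d3, the glucocorticoid-induced leucine zipper, was at 9.80, 7.52 and 1.17 against 487, 749 and 383 (-5.96 ± 0.52). Txnip, which restrains glucose uptake, was at 24.5, 22.6 and 3.52 against 778, 989 and 1172 (-5.47 ± 0.50). The antiproliferative factors Btg1 and Btg2 fell by 3.52 ± 0.16 and 3.39 ± 0.20. Satb1, Slfn2 and Id3 were not called, at -0.13, -0.18 and -0.05.

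Of 23 genes for homing, egress and integrins, 12 were lower and 1, Gpr183, was higher (median -2.51). S1pr1, the sphingosine phosphate receptor by which T cells leave lymphoid organs (chr3:115710433-115715072), was at 23.5, 11.3 and 8.22 against 1322, 1129 and 1532 (-6.20 ± 0.44, adjusted p = 1.74e-42). Itgb3, an integrin chain, was at 10.8, 9.03 and 14.1 against 330, 285 and 350 (-4.77 ± 0.30). The homing chemokine receptor Ccr7 stood closer to its control level and was not called (-0.82). Among 17 chemokine and chemokine receptor genes, Xcl1 and Cxcr5 were higher and 6 were lower (median -0.86). Cxcr4 was at 0, 3.76 and 3.52 against 90.7, 193 and 45.7 (-4.98 ± 0.57), and Ccl5 fell by 4.22 ± 0.66. Of 8 Gimap GTPases, which support lymphocyte survival, 7 were lower (median -2.09), with Gimap6 at 172, 138 and 155 against 1329, 1381 and 1322 (-3.10 ± 0.14). As the Gimap genes are related in sequence, reads may have been shared among them.

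Of 33 genes for the TCR complex and proximal signalling, 16 were lower and 2, Ubash3a and Zap70, were higher (median -0.68). Zap70 stood at the threshold and lost its call in thinned libraries and without control replicate 3 (0.98 in each). Cd3g was at 106 ± 16.1 against 465 ± 93.6 (-2.10 ± 0.18). Txk, a Tec family kinase, was at 104, 95.5 and 83.4 against 805, 867 and 998 (-3.21 ± 0.15), and Rasgrp1, which couples the TCR to Ras, fell by 2.14 ± 0.13. Of 21 NFAT and calcium signalling genes, 8 were lower and 0 higher (median -0.93). Orai2, a calcium channel subunit, was at 7.84, 6.77 and 8.22 against 291, 286 and 347 (-5.20 ± 0.34), and Ppp3ca, a catalytic subunit of calcineurin, was at 38.2, 24.1 and 24.7 against 513, 581 and 665 (-4.29 ± 0.22). Dgka, a diacylglycerol kinase that limits TCR signalling and is raised in anergic cells, was at 114, 81.2 and 121 against 1992, 2058 and 2171 (-4.30 ± 0.13). Over the 16 anergy-associated genes, the median was -0.27, with Cblb and Sh2d2a among the higher and Dgka, Nt5e and Tle4 among the lower members.

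Interferon-stimulated genes and MHC class I genes were lower as well. Of 44 interferon-stimulated genes, 24 were lower and 1, Isg15, was higher (median -1.33). Ddx58, which encodes the RNA sensor RIG-I, was at 61.8, 24.1 and 9.39 against 417, 474 and 458 (-3.59 ± 0.47), and Ifi27l2a was at 78.4, 60.9 and 43.4 against 410, 585 and 525 (-2.98 ± 0.28). Isg15 was at 195, 198 and 175 against 46.4, 72.0 and 57.1 (1.63 ± 0.37). Of 21 genes for MHC class I presentation, 12 were lower (median -1.07). B2m, the light chain shared by all class I molecules, was at 4214, 4016 and 4417 against 8877, 9676 and 10063 (-1.18 ± 0.08), and H2-K1 fell by 1.22 ± 0.13. Reads of the H2 genes may be split among near-identical copies. The list's higher members were Calr and Pdia3, which also serve folding in the endoplasmic reticulum. Of 16 mRNA decay regulators, 9 were lower and Elavl1, an mRNA-stabilising protein gene, was higher (median -1.22). Of 31 autophagy and lysosome genes, 15 were lower and Gabarapl1 was higher (median -0.92). The call of Gabarapl1 was lost in thinned libraries (1.17, adjusted p = 0.0814), with limma on the rlog values (0.93), without 12 h replicate 1 (1.10) and without control replicate 3 (1.11).

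The lowest log2 fold change belonged to Gm14085, a gene model without a name, at 0, 0.752 and 4.70 against 215, 336 and 497 (-7.14 ± 0.55). Ggt5, a γ-glutamyltransferase, was at 0.980, 0 and 2.35 against 197, 190 and 206 (at least 67.9-fold lower). Zbtb20, a zinc finger repressor, was at 9.80, 14.3 and 27.0 against 1090, 1262 and 1111 (-6.01 ± 0.27). Hmgb1-ps8, called lower by 6.47, is a pseudogene whose reads could be those of its parent. Hmgb1-ps8 also lies within the span of Gm26740 on the same strand (log2 fold change -5.91). The source of its reads was not tested. Among abundant transcripts, Malat1, a nuclear long non-coding RNA, was at 8543, 8935 and 9952 against 46081, 52324 and 55382 (-2.48 ± 0.11), and Tmsb4x, thymosin β4, was at 3313, 3487 and 1929 against 11339, 10012 and 13902 (-1.98 ± 0.25). Gene classes differed in direction. Of 266 lincRNA genes tested, 14 were higher and 83 lower, and of 260 antisense genes 15 and 70, beside 2154 and 2200 of 11008 protein-coding genes. Of 99 small nucleolar RNA genes, 37 were higher and 5 lower. These small genes lie in introns of other genes, and the part of reads from their hosts was not tested.

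The same 12 h libraries were then set beside the 0.8 µg groups at 4 h and 24 h, to place the point in time. Per the study's methods those cells were sorted as Blue+Red- and Blue-Red+, so that gate and time changed together. These comparisons share the 12 h libraries with one another and with the comparison above. Against 4 h, 1548 of 12331 tested genes were higher at 12 h (12.6%) and 984 were lower (7.98%), with a median log2 fold change of 0.05. Against 24 h, 1225 of 12925 were higher at 12 h (9.48%) and 2209 were lower (17.1%), with a median of -0.12.

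The first wave of TCR-induced genes was below its 4 h level. Of 22 immediate early and TCR-induced factors, 16 were lower at 12 h than at 4 h and 0 higher (median -1.57), and 14 of 26 NF-κB genes were lower (median -1.08). Nr4a3 had a mean of 3536 ± 102 normalised counts at 4 h (SD, n = 3), 562 ± 180 at 12 h and 54.2 ± 34.5 at 24 h. Cd69 was at 2234 ± 232, 139 ± 42.4 and 237 ± 17.3, and Myc was at 918 ± 135, 187 ± 68.6 and 34.7 ± 6.54. Other activation genes stayed closer to their 4 h level. Irf8 was at 3456 ± 750, 2100 ± 203 and 344 ± 30.1 (no call between 4 h and 12 h, -0.71 ± 0.14), Tnfrsf9 was at 1944 ± 125, 1099 ± 208 and 109 ± 65.0 (no call between 4 h and 12 h, -0.80 ± 0.35), and Eomes was at 179 ± 89.8, 305 ± 34.1 and 39.2 ± 12.6 (no call between 4 h and 12 h, 0.75 ± 0.32). Ifng was at 4.11 ± 3.67, 157 ± 72.7 and 2.63 ± 0.666, so that among the 0.8 µg groups it was highest at 12 h, by 4.34 ± 0.76 over 4 h (adjusted p = 4.85e-07). It was called against 24 h too (adjusted p = 2.40e-08), where each library was at or under the floor of 3 counts.

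**Figure D4:**
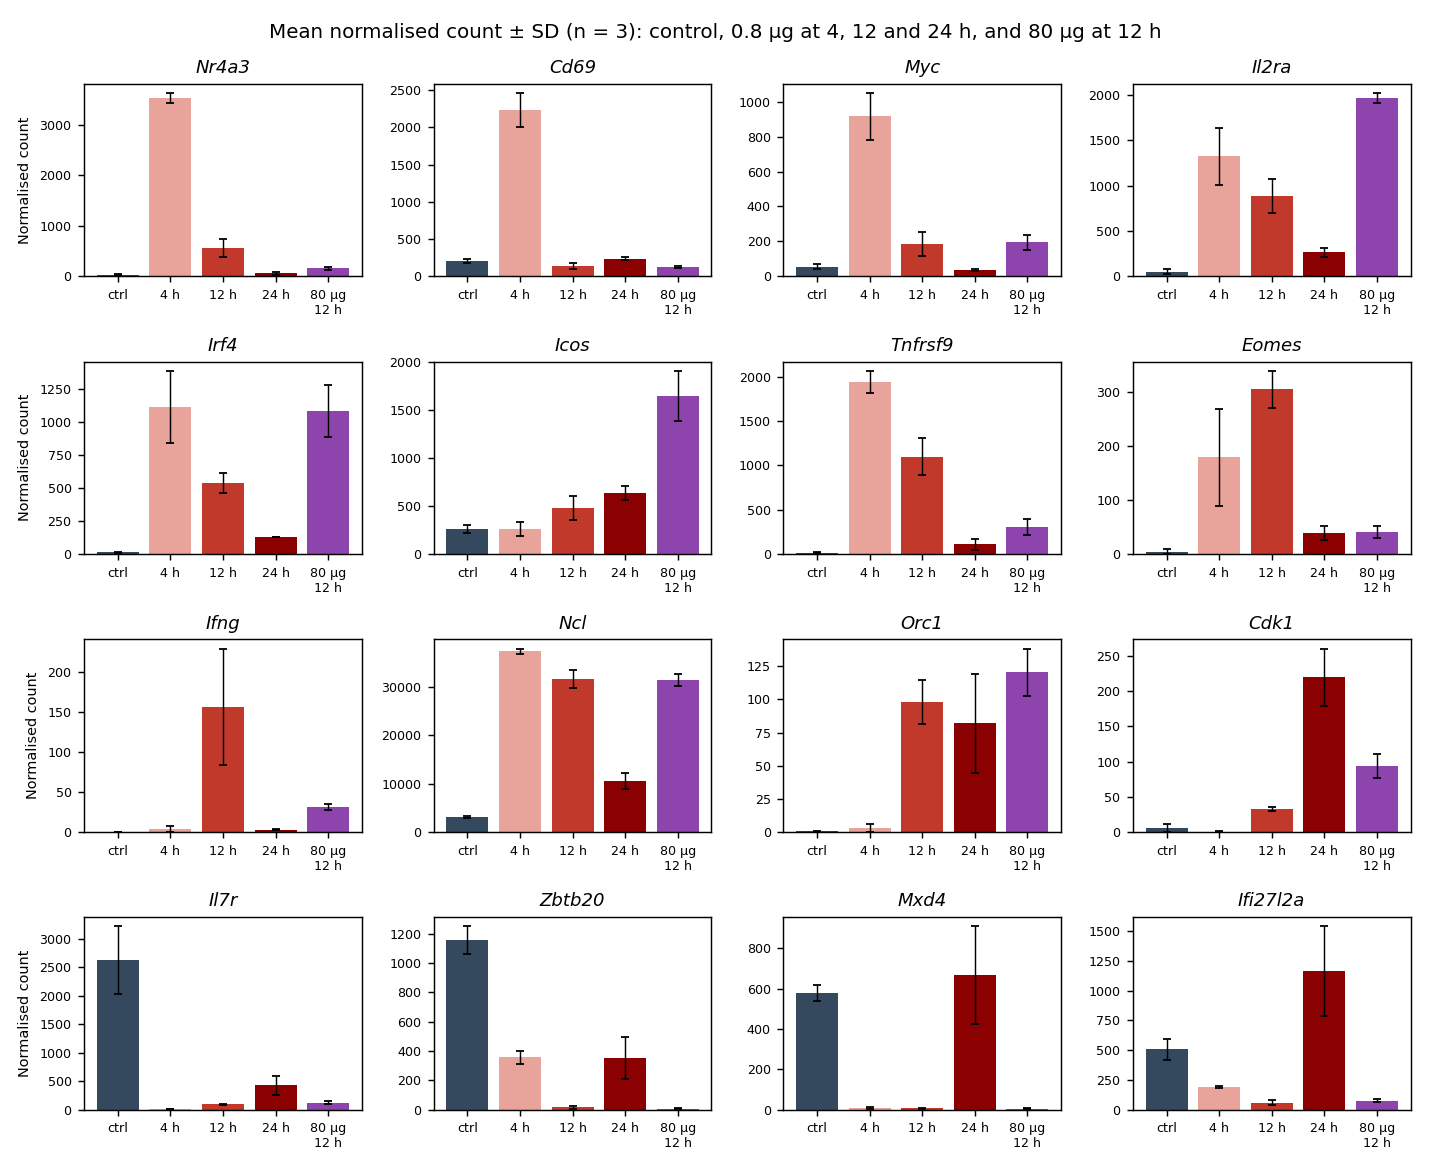
Mean normalised count with SD (n = 3, linear axes from 0) of 16 genes in the control group, the 0.8 µg groups at 4, 12 and 24 h and the 80 µg group at 12 h. Nr4a3, Cd69 and Myc are highest at 4 h, Ifng is highest in the 0.8 µg 12 h group, Cdk1 is highest at 24 h, and Mxd4 is low at 4 h and 12 h and near the control level at 24 h.

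The growth lists differed among themselves in time. Of the 63 ribosome biogenesis genes, 0 were higher and 2, Ddx10 and Nol6, lower at 12 h than at 4 h (median -0.39), while 58 were higher and 0 lower at 12 h than at 24 h (median 1.88). Ncl was at 37359 ± 556, 31644 ± 1869 and 10568 ± 1638. The tRNA synthetases had medians of -0.02 against 4 h and 1.16 against 24 h, with 13 of 22 higher than at 24 h. Chaperones (24 of 32 higher than at 24 h, median 1.19) and translation factors (19 of 43, median 0.91) also had many members above the 24 h level. Beside 9.48% of all genes higher and 17.1% lower than at 24 h, the counts were smaller for spliceosome genes (4 of 40 higher, median 0.70), proteasome genes (8 of 46 higher and 2 lower, median 0.56), respiratory chain subunits (2 of 69 higher and 1 lower, median 0.15) and TCA cycle genes (3 of 24 higher and 1 lower, median 0.18), and purine and pyrimidine genes were split (7 of 30 higher and 6 lower, median 0.69). The cell cycle lists had other patterns. DNA replication genes were higher at 12 h than at 4 h (38 of 44, 0 lower, median 2.13) and 12 were lower and 1, Orc2, higher than at 24 h (median -0.65). Orc1 was at 3.10 ± 3.03, 97.8 ± 16.6 and 81.9 ± 37.6. Of 38 mitosis genes, 18 were called higher than at 4 h and 0 lower (median 1.43), and 37, all but Bub3, were lower than at 24 h (median -4.14). Cdk1 went from 0.336 ± 0.583 at 4 h to 32.8 ± 3.06 at 12 h and 220 ± 40.8 at 24 h.

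Resting-state and interferon genes were higher at 24 h than at 12 h. Of the 30 naive and quiescence factors, 16 were lower and 1, Satb1, higher at 12 h than at 24 h (median -1.33). Of 22 homing genes, 13 were lower and 1, Gpr183, higher (median -2.23). Mxd4 was at 8.39 ± 3.22, 6.59 ± 3.44 and 666 ± 242. Il7r was lowest at 4 h, at 14.5 ± 3.44, followed by 95.1 ± 11.1 and 428 ± 160. Of the 44 interferon-stimulated genes, 42 were lower at 12 h than at 24 h (median -2.72) and 12 were higher than at 4 h (Cxcl10, Ifi27l2a and Isg20 lower, median 0.50), with Ifi27l2a at 191 ± 10.7, 60.9 ± 17.5 and 1163 ± 375. Some genes had their lowest level among the 0.8 µg groups at 12 h. Zbtb20 was at 359 ± 44.4, 17.0 ± 8.92 and 352 ± 140, and Ltb was at 456 ± 103, 17.2 ± 7.76 and 391 ± 82.5, with log2 fold changes of -4.34 ± 0.27 and -4.63 ± 0.29 against 4 h and of -4.31 ± 0.27 and -4.41 ± 0.29 against 24 h.

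**Figure D5:**
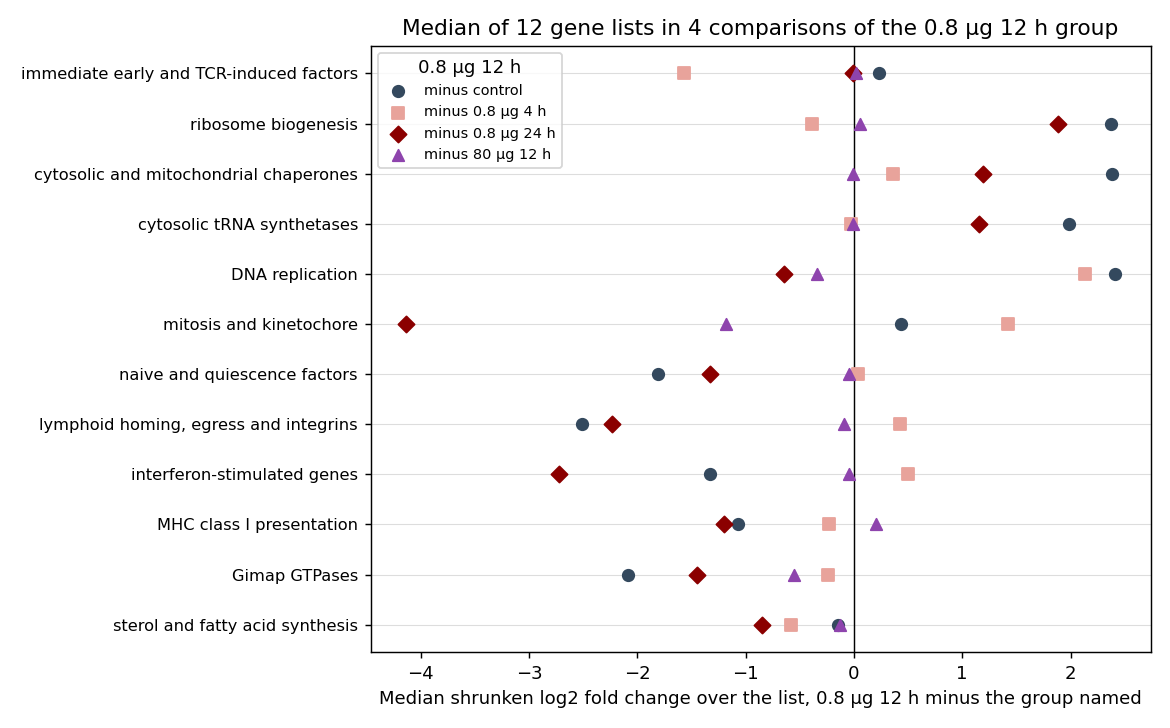
Median shrunken log2 fold change (horizontal axis) of 12 gene lists in 4 comparisons of the 0.8 µg 12 h group, minus the control, the 0.8 µg 4 h, the 0.8 µg 24 h or the 80 µg 12 h group. The mitosis list lies at 0.43, 1.43, -4.14 and -1.18 in that order, and ribosome biogenesis at 2.37, -0.39, 1.88 and 0.06.

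The dose was compared at the same time and in the same gate, 0.8 µg against 80 µg at 12 h. Of 11145 tested genes, 107 were higher at the low dose (0.960%) and 204 were lower (1.83%), 2.79% in all, with a median log2 fold change of -0.01. When the 6 libraries of these groups were fitted alone, 145 genes were called in place of 311. The ribosome biogenesis list had a median of 0.06 and the naive and quiescence list one of -0.04, with Bach2 (-1.08) the single gene of the latter that was called.

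Genes that were higher at the low dose included Nr4a3, Nr4a1 and several receptors, while Nr4a2 was not called (0.51 ± 0.29). Nr4a3 was at 562 ± 180 against 154 ± 35.1 (1.80 ± 0.37, adjusted p = 5.79e-05), although both groups were sorted on its reporter, and Nr4a1 was at 495 ± 43.4 against 103 ± 54.0 (2.19 ± 0.38). Cd160 was at 173 ± 31.7 against 18.8 ± 6.92 (3.14 ± 0.34, adjusted p = 2.30e-17), Eomes at 305 ± 34.1 against 40.7 ± 10.8 (2.84 ± 0.33), Lad1 at 657 ± 110 against 94.3 ± 6.84 (2.77 ± 0.20) and Tnfrsf9 at 1099 ± 208 against 304 ± 92.9 (1.79 ± 0.35). In each of these genes the SDs were smaller than the gap between the doses. Ifng was at 157 ± 72.7 against 30.9 ± 3.59, a log2 fold change of 2.04 ± 0.73 that did not pass the test (adjusted p = 0.0893). Gata3, not called against the control, was at 334 ± 51.1 against 65.5 ± 5.59 (2.33 ± 0.17, adjusted p = 1.02e-40).

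Genes that were lower at the low dose included receptors and regulators of helper function. Icos was at 480 ± 124 against 1644 ± 264 (-1.76 ± 0.18, adjusted p = 1.38e-19), Il2ra at 887 ± 189 against 1968 ± 56.4 (-1.13 ± 0.23), Irf4 at 537 ± 76.7 against 1089 ± 198 (-1.01 ± 0.15) and Il12rb2 at 58.3 ± 36.0 against 153 ± 24.8 (-1.33 ± 0.41, adjusted p = 0.0250). Il21, Rora and Ctla4, which were not called against the control, were among them. Il21, a cytokine of helper cells, was at 2.39 ± 2.45 against 204 ± 42.0 (-5.97 ± 0.53). Rora was at 128 ± 111 against 886 ± 172 (-2.59 ± 0.50), and Ctla4 at 40.5 ± 27.7 against 238 ± 37.1 (-2.40 ± 0.46). Malt1, a paracaspase of the NF-κB pathway that had fallen below the control at the low dose, was at 83.4 ± 7.25 against 558 ± 111 (-2.71 ± 0.19). Of the cell cycle lists, 18 of 38 mitosis genes and 4 of 44 replication genes (Cdc45, Cdc6, Mcm10 and Uhrf1) were lower at the low dose and 0 of either higher, with medians of -1.18 and -0.34, and Cdk1 was at 32.8 ± 3.06 against 93.0 ± 17.2 (-1.48 ± 0.26). Of the 36 lineage regulators, 4 were higher (Eomes, Gata3, Ikzf2 and Tox) and 7 lower, among them Irf4, Maf, Nfil3, Prdm1 and Tbx21, at the low dose.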

How the data were processed

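Whole-transcriptome 3′ mRNA libraries (QuantSeq forward kit) were made from CD4+ T cells sorted from mouse spleens. To make the deposited counts, the authors trimmed the reads, aligned them to GRCm38 with STAR 2.5.2a and counted reads per Ensembl gene with HTSeq. A 3′ kit counts ends, so a gene whose annotated end is wrong is undercounted. The strand setting, the annotation release and any use of molecular identifiers were not given in the sources used here. The deposited log2 values are the authors' rlog transformation by DESeq2, used here for principal components and as an alternative. The table held 47643 genes.

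Differences were tested by the Wald test of DESeq2 1.42.0 (R 4.3.3) on the counts. The fit had a term for group over all 21 samples, which share an estimate of dispersion, for the 15300 genes with at least 10 reads over all samples. Shrinkage of the log2 fold changes used DESeq2's normal prior, and p-values were adjusted by the Benjamini-Hochberg method over all genes that passed independent filtering. A gene was called at an adjusted p under 0.05 and an absolute shrunken log2 fold change above 1, as in the study's methods. The script was tested on simulated data. Normalised counts are counts divided by DESeq2 size factors. Replicates are separate mice per the study, with 3 per group. Where every library of a group had 3 counts or fewer, the fold is a lower bound against 3 counts in each of its libraries; 3 counts are 0.703 to 1.28 CPM in these 6 libraries. Locations are from GENCODE vM21 on GRCm38, and promoters are RefSeq's, taken as the first promoter per symbol.

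Genes were named by a rule. From called genes averaging 20 or more normalised counts in the 6 libraries whose groups did not overlap came the 12 highest and the 12 lowest log2 fold changes and the 8 most abundant in each direction. Up to 4 called members per gene list, by size of log2 fold change, were named with no minimum count; added to these were Nr4a3, Nr4a1 and the genes of the study's scores, and list members that were not called could be named with their values. Other called genes were named after their values were seen (Aldoc, Bach2, Cblb, Ccna2, Cd226, Cd27, Cd28, Cd81, Cd8a, Cflar, Ctps2, Cxcr5, Ddit3, Ddit4, Elavl1, Foxp3, Gabarapl1, Gpr183, Il2, Il2rb, Isg15, Jun, Kif23, Knl1, Lck, Maf, Malt1, Mcm5, Mcm6, Mlxip, Mnt, Nfil3, Nop2, Pdcd1, Pdia3, Pdk1, Pecam1, Pola1, Prc1, Prdm1, Rpl41, Rpl7a, Rrm2b, Rrn3, Sh2d2a, Tbx21, Tnfrsf18, Tnfrsf25, Tnfsf10, Trib3, Ubash3a and Zap70), as were Cd4, members singled out in counts against the other groups, and the motifs shown. Some genes that the rule names are not reported here. The 47 gene lists, the comparisons and the rule were chosen with earlier results of these data known.

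Alternatives were edgeR 4.0.16 (quasi-likelihood test), TMM factors, other filters on low counts, unshrunken values, the adjusted p alone, only the groups compared, a replicate block, limma 3.58.1 on the rlog values, thinned libraries, removal of abundant ribosomal genes, and leaving out each replicate.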

Additional observations from a re-analysis of the deposited data

Results flagged for a closer look

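The 0.8 µg 12 h group differed from its neighbours in time and dose by tests of the difference itself, with DESeq2 at an adjusted p under 0.05 and an absolute log2 fold change above 1. Against the 0.8 µg 4 h group 2532 genes were called, 20.5% of those tested, and 14 of the 32 genes named for their rank or for the study's scores were among them. Against the 0.8 µg 24 h group 3434 genes were called (26.6%), with 28 of the same 32. Most of the 32 were chosen for extreme differences between these 12 h libraries and the control, so their counts are a description and no test beside the shares over all genes. Against the 80 µg group at 12 h 311 genes were called (2.79%). Of the 32 genes, those that differed by dose at 12 h were Lad1 (log2 fold change 2.77 higher at the low dose), Tnfrsf9 (1.79), Eomes (2.84), Nr4a3 (1.80) and Nr4a1 (2.19), and, lower at the low dose, Mcm10 (-1.19), Ncmap (-3.18), Il2ra (-1.13) and Icos (-1.76). Ncmap, which encodes a myelin-associated membrane protein, was at 12.6 ± 5.99 normalised counts after 80 µg (SD, n = 3) and at 0.577 ± 0.513 after 0.8 µg, where each library was at or under the floor of 3 counts, so that its fitted fold change depends on the fit and is no bound.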

How the results depend on the processing

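The count of 5094 called genes against the control changed little with the processing. It was 5320 with edgeR, 5096 with TMM factors, 5090 without a filter, 5161 with a CPM filter, 5142 without shrinkage, 4896 with only the 6 libraries, 4325 with limma on the rlog values, 4828 in thinned libraries and 5094 without the abundant ribosomal genes. Leaving out 1 library gave 4748 to 4937, and the adjusted p alone gave 7184. A fit with a replicate block gave 5006 calls, 4974 of them shared. Same-numbered libraries of the groups did not deviate together (r of -0.12 to -0.01 over 7247 genes), so the numbers were not taken as pairs. The median of all genes stayed between -0.13 and -0.05.

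The other counts moved more. By the adjusted p alone, 4822 genes differed from 4 h, 5689 from 24 h and 699 from the 80 µg group. The last count fell from 311 to 145 when only those 6 libraries were fitted, and ranged from 227 to 330 when 1 library was left out. Of 4504 values against the control for 265 genes named in the text, 4417 kept their direction and their side of the threshold. Genes that were not called changed sign: Id3 with only the 6 libraries (0.027), and, over the fits that left out 1 library, Stat4 (-0.093 to 0.27), Egr1 (-0.58 to 0.00493), Egr2 (-0.10 to 0.36), Fos (-0.83 to 0.075), Id3 (-0.20 to 0.10), Rora (-1.01 to 0.26) and Satb1 (-0.28 to 0.10). With 1 library left out, calls were also lost by Bach2 (12 h replicate 3, from -1.16 to -0.94 against the control), Rrm2b (12 h replicate 3), Rpl41 (control replicate 1, 0.99), Zap70 (control replicate 3, 0.98), Pdia3 (12 h replicate 3, 0.85; control replicate 3, 0.94), Gabarapl1 (12 h replicate 1, 1.10; control replicate 3, 1.11), Pgd (12 h replicate 1 and control replicate 2, 0.94; control replicate 1, 0.96), Mlxip (12 h replicate 2; control replicate 1, -0.95) and Rpl7a (0.83 to 0.94, 4 libraries). They were gained by Icos (12 h replicate 3, 1.06), Ctla4 (12 h replicate 3, 1.43; control replicate 3, 1.46), Mki67 (12 h replicate 2, -1.21), Hk1 (12 h replicate 1, control replicate 3) and Psmb9 (12 h replicate 2, control replicates 1 and 2). With only the 6 libraries, calls were lost by Ccr2 (-2.20), Mlxip (-0.96), Knl1, Aldoc, Ccna2, Prc1 and Trib3; in thinned libraries by Aldoc, Gabarapl1, Knl1, Prc1, Trib3 and Zap70; with limma by Pgd, Aldoc, Ccna2, Gabarapl1, Mlxip, Prc1, Rpl7a and Trib3; with edgeR and the CPM filter by Prc1; and with the replicate block by Aldoc. Ctla4 gained a call with edgeR (1.26) and Psmb9 in thinned libraries (-1.07). The causes were not tested. Of 752 list medians under the alternatives, 132, in 35 of the 47 lists, moved by more than the spread between libraries. Moves of over 1.5 times from medians above 0.3 in size were in the cytokine list (1.11 to between 0.31 and 1.79), chemokines (-0.86 to -1.43), coinhibitory receptors (-0.44 to between -0.79 and -0.10), feedback regulators (0.45 to 0.30), G1 regulators (0.52 to 0.90), mitosis (0.43 to 0.10 and 0.14) and BCL2 (-0.48 to between -0.27 and 0.11). List medians changed sign in 4 lists: BCL2 (-0.48 to 0.11) and costimulatory (0.29 to -0.04) with only the 6 libraries, costimulatory without 12 h replicate 1 (-0.08), NF-κB (0.05 to between -0.08 and -0.01 in 4 settings) and lineage (0.08 to -0.02 and -0.03 without 12 h replicate 2 and control replicate 2).

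Precision is limited by 3 mice per group and by totals of 2352800 to 4265658 counts. Genes near the floor cannot be ranked by fold change, 3′ counting does not separate isoforms, and gate and treatment cannot be told apart. All values are relative to the RNA counted in each library, so gain or loss per cell cannot be read from them. As the labels do not say how sorts or sequencing runs were divided between groups, no value within a batch is given.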
